A study of Homo sapiens with 4 samples.

Results

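The replication-dependent histone genes encode the H1, H2A, H2B, H3 and H4 proteins that package new DNA, and they were taken here as all genes whose current symbols are H1-1 to H1-6 or begin with H2AC, H2BC, H3C or H4C followed by a number. The rule found 61 of the 17687 genes named by the array's annotation, each measured by 1 probe set. They were 6 H1, 14 H2A, 17 H2B, 9 H3 and 15 H4 genes, of which 49 lie on chromosome 6, 11 on chromosome 1 and 1, H4C16, on chromosome 12. RefSeq lists 69 genes that fit the rule, and H2AC7, H2AC16, H2AC17, H2BC15, H3C4, H3C12, H3C14 and H3C15 had no named probe set in the table and were not analysed here.

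The study set out from immunodeficiency genes and the recurrence of prostate cancer, and the arrays were a later step, on cells in which TNFRSF13B (CD267), the receptor TACI of the TNF receptor family, was silenced. Total RNA of 4 stable cell populations was hybridised to Affymetrix arrays, 1 array for each of the lines PC-3 and 22Rv1 carrying either shTNFRSF13B, a hairpin against TNFRSF13B, or the empty vector. PC-3 and 22Rv1 are human prostate cancer lines. All 4 populations carried a lentiviral pLKO.1 vector and had been selected with puromycin; PC-3 cells were grown in F12 medium and 22Rv1 cells in RPMI. The knockdown rested on 1 hairpin sequence, the control held no hairpin, and no treatment or time point was given beyond the construct. With 1 array per condition there was no replicate within a line, so the differences within a line have no test, SD or p-value, and each is a difference between 2 arrays. A limma fit over all 4 arrays with the line as a block, which takes both lines as replicates of 1 effect and has 1 residual degree of freedom, gave 0 of the 61 histone genes at an adjusted p under 0.05 as deposited, against 0.164% of all genes, and 0 after quantile normalization, against 0%. Ratios of opposite sign in the 2 lines offset each other in this fit, so its 0 says nothing about differences within a line. At an unadjusted p under 0.05 of the fit there were 3 as deposited, H2BC4, H4C14 and H4C15, against 3.16% of all genes. After quantile normalization there were 0, against 1.97%. The fit as deposited used 1 variance for all genes, not each gene's own. In PC-3 cells the log2 ratios of the 3 were -0.11, -0.35 and 0.29, against 4.88, 4.39 and 4.42 in 22Rv1 cells. They thus show no difference shared by the lines.

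These histone mRNAs are made in large amounts while DNA is copied in S phase and are degraded when copying stops. Most of them end in a stem-loop bound by SLBP rather than in a poly(A) tail. NPAT at the histone locus body drives their transcription, and the genes lie in clusters with many near-identical copies of each class. H2A, H2B, H3 and H4 form the nucleosome core, and H1 binds the linker DNA between nucleosomes. In RNA of a whole culture, fewer cells in S phase and less histone RNA per cell cannot be told apart.

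Each value is the log2 expression value of a probe set as deposited, and a log2 ratio was formed within a line by subtracting the empty vector value from that with shTNFRSF13B. The 22Rv1 empty vector array was spread differently from the other 3: the median of the 24351 probe sets lay at 5.33 there against 6.93 to 7.01, and the maximum at 19.77 against 18.37 to 18.44. Ratios are therefore also given after quantile normalization, which forces the same distribution on all 4 arrays. TNFRSF13B itself stood at 4.85 with shTNFRSF13B and 5.25 with the empty vector in PC-3 cells, and at 5.63 and 6.08 in 22Rv1 cells. Its log2 ratios of -0.40 and -0.45 (-0.43 and -2.20 after quantile normalization) were lower with shTNFRSF13B but short of 2-fold as deposited. The study reported less TNFRSF13B protein with the hairpin in both lines, by western blot. The PC-3 markers VIM, CAV1 and ITGA3 were all at least 2-fold higher in PC-3 than in 22Rv1 cells with both constructs after quantile normalization. On that scale 3 of 5 measured luminal markers were at least 2-fold higher in 22Rv1 cells with each construct. They were not the same 3, as KLK2 was among them only with shTNFRSF13B.

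Probe sets of different genes bind with different strength, so levels were compared between arrays for the same gene and not between genes. As a mark of a dim probe set, the 95th percentile of 348 olfactory receptor genes, which most tissues do not use, was 4.98 and 4.92 on the shTNFRSF13B and empty vector arrays of PC-3 cells, and 5.30 and 3.91 on those of 22Rv1 cells. TNFRSF13B, at 4.85, was below the mark on the PC-3 array with shTNFRSF13B and above it on the other arrays. Of the 61 histone genes, 45 were above the mark on all 4 arrays, 10 on 1 to 3 arrays and 6 on none. The 6 were H1-1, H2AC1, H2BC1, H2BC10, H3C8 and H4C7, and their ratios, which compare dim values, are counted in the medians. The copies of a class are so alike that a probe set may also catch RNA of its neighbours. H4C14 and H4C15, whose 300-base promoter windows in RefSeq are identical letter for letter, had values of 12.56 and 12.86 with shTNFRSF13B and 12.91 and 12.57 with the empty vector in PC-3 cells.

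Across the 61 genes the median log2 value was 8.26 with shTNFRSF13B and 9.77 with the empty vector in PC-3 cells, and 8.85 and 5.80 in 22Rv1 cells. The shTNFRSF13B array was thus the lower of the pair in PC-3 cells and the higher in 22Rv1 cells, the latter against an empty vector array whose median over all genes was also low. The order of the medians in PC-3 cells held within each class: 6.27 and 8.60 for H1, 11.56 and 12.19 for H2A, 8.70 and 10.14 for H2B, 6.63 and 8.45 for H3, and 7.92 and 8.03 for H4, with shTNFRSF13B first. In 22Rv1 cells the order was the opposite in each class, at 7.09 and 4.56 for H1, 10.87 and 8.45 for H2A, 8.10 and 5.44 for H2B, 7.93 and 4.90 for H3, and 9.46 and 6.81 for H4. H2BC12 stood at 15.72 and 16.64 in PC-3 cells and at 16.47 and 13.60 in 22Rv1 cells. H4C5 stood at 13.67 and 15.70 in PC-3 cells and at 14.66 and 12.63 in 22Rv1 cells. Both had the lower value of a pair with shTNFRSF13B in PC-3 cells and the higher in 22Rv1 cells. The plot of all levels shows these pairs gene by gene.

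**Figure D1:**
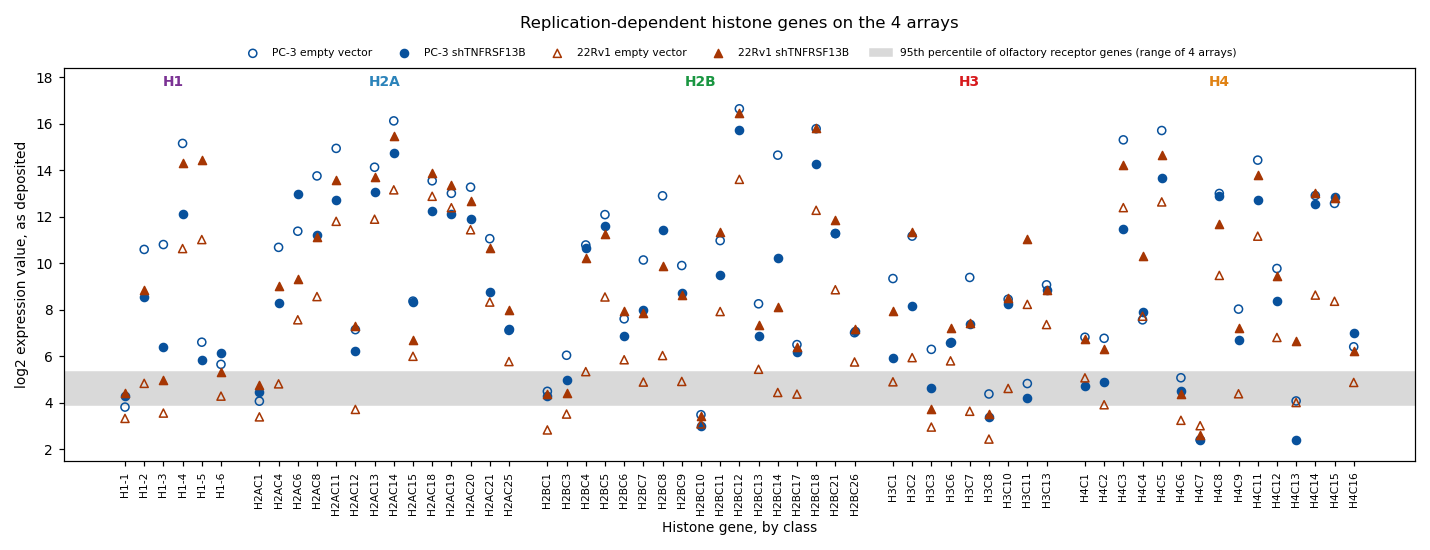
The log2 expression value as deposited (vertical axis) of each of the 61 histone genes (horizontal axis, by class) on the 4 arrays, with 1 array per condition and no error bar. Filled circles, PC-3 with shTNFRSF13B, lie below open circles, PC-3 with the empty vector, for 49 of the 61 genes, and the grey band spans the dim mark of the 4 arrays.

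In PC-3 cells the histone genes as a group were lower with shTNFRSF13B. Their median log2 ratio was -1.05 (-1.04 after quantile normalization) against -0.0019 (0.01) over all 17687 genes, and 49 of the 61 ratios were below 0. At least 2-fold lower were 31 of the 61 genes, against 4.69% of all genes, and after quantile normalization 32 were, against 4.25%. At least 2-fold higher was 1 gene, H2AC6, on both scales, against 5.76% and 5.87% of all genes. Each of the 5 classes took part: 3 of 6 H1, 8 of 14 H2A, 8 of 17 H2B (9 after quantile normalization), 4 of 9 H3 and 8 of 15 H4 genes were at least 2-fold lower. The class medians were -1.39 for H1, -1.17 for H2A, -0.92 for H2B, -0.98 for H3 and -1.32 for H4. The H1 and H3 medians rest on few genes: leaving out dim, testis-type or polyadenylated-form genes gave -3.04 to -0.75 for H1, and leaving out dim genes gave -1.64 or -1.98 for H3. The ranges of the 5 classes overlapped, and no test between them was made.

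The linker histone genes ranged from strongly lower to slightly higher in PC-3 cells. H1-3 (NCBI gene 3007) was at 6.42 with shTNFRSF13B and 10.80 with the empty vector, 20.9-fold lower. H1-4 (gene 3008) was at 12.11 and 15.15, 8.25-fold lower, and H1-2 (gene 3006) at 8.57 and 10.59, 4.07-fold lower. These 3 are linker histones of somatic cells. H1-5, another somatic form, was at 5.86 and 6.61, a log2 ratio of -0.75, and the testis form H1-6 was at 6.13 and 5.65, a log2 ratio of 0.47. The last 2 were thus within 2-fold, and H1-1 was below the mark on both arrays.

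The window of 250 bases before to 50 after the start was found in RefSeq (GRCh38.p14) for 57 of the 61 genes, and not for H2AC12, H3C11, H4C1 and H4C3. A set of 4 short motifs known from histone promoters was searched on both strands: the H1 box AAACACA, the octamer ATTTGCAT that binds the POU factor Oct-1, the CCAAT motif of NF-Y and TATAAA. No 2 sites of different motifs overlapped among the 216 found. The H1 box was in 6 of 6 H1 windows, 1 of 13 H2A windows and none of the others, against 5.64% of all 35116 RefSeq windows, and CCAAT was in 6 of 6 against 34.6%. The 5 H1 genes with a forward box are shown as the 81 bases that end at -45 from the start, with the H1 box and CCAAT (or its reverse, ATTGG) in capitals, because genes with nearly the same pair of motifs ranged from 20.9-fold lower (H1-3) to within 2-fold (H1-5, H1-6). The 5 stretches lie at chr6:26056515-26056595 (H1-2), chr6:26235032-26235112 (H1-3), chr6:27867633-27867713 (H1-5) and chr6:26108180-26108260 (H1-6) on the minus strand and at chr6:26156204-26156284 (H1-4) on the plus strand.
H1-2: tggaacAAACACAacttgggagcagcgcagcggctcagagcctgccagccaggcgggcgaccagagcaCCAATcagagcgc
H1-3: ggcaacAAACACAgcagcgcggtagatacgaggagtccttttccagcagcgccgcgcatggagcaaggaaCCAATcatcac
H1-4: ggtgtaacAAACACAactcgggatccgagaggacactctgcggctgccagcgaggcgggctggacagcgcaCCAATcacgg
H1-5: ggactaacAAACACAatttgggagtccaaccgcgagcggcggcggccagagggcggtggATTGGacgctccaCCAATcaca
H1-6: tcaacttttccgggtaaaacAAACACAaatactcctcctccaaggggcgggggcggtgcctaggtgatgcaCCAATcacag
The CCAAT nearest the start began between -57 and -53 in all 6 H1 windows. The H1 box and CCAAT thus stood before the H1 gene with the lowest PC-3 ratio and before H1-6, whose ratio was above 0. TATAAA was in the windows of H1-1, H1-3 and H1-4, with PC-3 log2 ratios of 0.49, -4.39 and -3.04. It was not in those of H1-2, H1-5 and H1-6, at -2.03, -0.75 and 0.47.

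Among the H2B genes the lowest ratio was that of H2BC14 (NCBI gene 8342), at 10.23 with shTNFRSF13B and 14.64 with the empty vector, 21.3-fold lower. It was the lowest PC-3 ratio of all 17687 genes, -4.41 as deposited and -4.60 after quantile normalization, and H1-3 was the next. After loess the order turned, with H1-3 the lowest at -4.34 and H2BC14 at -4.29. H2BC7 followed at 7.99 and 10.14, a log2 ratio of -2.15. H2BC18, H2BC11, H2BC8, H2BC13, H2BC9 and H2BC3 lay between -1.54 and -1.06, and the remaining 9 H2B genes were within 2-fold. Among these 9 were H2BC12, at -0.92 as deposited and -1.14 after quantile normalization, and H2BC21, which stood at 11.28 and 11.27. The H2B ratios as deposited thus ran from 0.06 (H2BC26) to the lowest value of the array pair.

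The octamer is the element long tied to H2B transcription in S phase. It was in 14 of 17 H2B windows and 8 of 13 H2A windows and in no H1, H3 or H4 window, against 1.77% of all windows. The upstream 250 bases of H2BC14 (chr6:27814772-27815021, plus strand) are shown for the gene with the lowest ratio, with the octamer, CCAAT and TATA motifs on either strand in capitals; H2AC14 starts 245 bases upstream and is read the other way.
H2BC14: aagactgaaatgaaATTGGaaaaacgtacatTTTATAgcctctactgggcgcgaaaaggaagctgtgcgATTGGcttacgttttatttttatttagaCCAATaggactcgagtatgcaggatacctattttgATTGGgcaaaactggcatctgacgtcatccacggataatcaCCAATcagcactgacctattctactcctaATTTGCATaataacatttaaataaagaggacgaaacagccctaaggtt
In 8 H2B genes the octamer began between positions -49 and -45 from the start, and in 5 between -123 and -104. The PC-3 ratios of the 8 had a median of -1.32 (-4.41 to 0.01, 5 at least 2-fold lower), and those of the 5 a median of -0.72 (-2.15 to -0.11, 2 at least 2-fold lower), against 4.69% of all genes. In 22Rv1 cells the medians were 3.49 and 2.11 as deposited and 2.13 and 0.68 after quantile normalization, with 7 of the 8 and 2 of the 5 at least 2-fold higher on the latter scale, against 13.3% of all genes. Below the mark on both 22Rv1 arrays were H2BC10 of the 8 and H2BC1 and H2BC3 of the 5. Without these dim genes, the first set ran from 1.36 (H2BC21) to 2.48 (H2BC18) after quantile normalization. In the second, H2BC4, H2BC7 and H2BC6 were at 3.27, 1.38 and 0.37. The ranges of both sets overlapped in each line, the split was made with the values known, and it was not tested. H2BC17 held the octamer reversed, and H2BC5, H2BC13 and H2BC26 held none in these 300 bases. Examples of the near position are shown as the 41 bases that end at -20, with the octamer and TATAAA in capitals: H2BC11 (chr6:27132815-27132855) and H2BC12 (chr6:27146878-27146918), H2BC18 (chr1:149812390-149812430) and H2BC21 (chr1:149886702-149886742), all on the minus strand; the stretch of H2BC18 holds no TATAAA.
H2BC11: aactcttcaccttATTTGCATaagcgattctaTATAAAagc
H2BC12: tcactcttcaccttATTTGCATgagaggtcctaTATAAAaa
H2BC18: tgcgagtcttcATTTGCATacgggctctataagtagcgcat
H2BC21: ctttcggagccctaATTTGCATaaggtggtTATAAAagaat
Examples of the far position are shown as the 41 bases that end at -85, with the octamer in capitals: H2BC3 (chr6:26043798-26043838, minus strand), H2BC4 (chr6:26124011-26124051, minus strand) and H2BC7 (chr6:26199391-26199431, plus strand).
H2BC3: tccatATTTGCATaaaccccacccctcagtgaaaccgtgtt
H2BC4: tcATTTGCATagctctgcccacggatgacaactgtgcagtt
H2BC7: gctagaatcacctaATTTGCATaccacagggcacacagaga
H2BC21, with the near octamer, did not differ by 2-fold in PC-3 cells, whereas H2BC7, with the far octamer, was 4.44-fold lower.

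Of the 14 H2A genes 8 were at least 2-fold lower in the PC-3 line, against 4.69% of all genes. At least 2-fold higher was 1 H2A gene, against 5.76%. H2AC8 was at 11.21 with shTNFRSF13B and 13.75 with the empty vector, 5.83-fold lower, and H2AC4 was at 8.29 and 10.68, 5.25-fold lower. H2AC21 and H2AC11 had log2 ratios of -2.30 and -2.20, and H2AC14, H2AC20, H2AC18 and H2AC13 lay between -1.36 and -1.05. H2AC19, whose product is the same protein as that of H2AC18, was at -0.87. H2AC6 (NCBI gene 8334) went the other way, at 12.98 with shTNFRSF13B and 11.38 with the empty vector, 3.03-fold higher and 3.46-fold after quantile normalization. It was the only histone gene of the 61 at least 2-fold higher in PC-3 cells.

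The H3 and H4 genes were also lower in PC-3 cells. H3C1 was at 5.94 with shTNFRSF13B and 9.34 with the empty vector, 10.6-fold lower, and H3C2 at 8.17 and 11.17, 7.96-fold lower. H3C7 and H3C3 had log2 ratios of -1.98 and -1.64, and H3C8, H3C11, H3C13, H3C10 and H3C6 were within 2-fold, from -0.98 to 0.06. H4C3 was at 11.47 and 15.30, 14.2-fold lower, and H4C1, H4C5, H4C2, H4C11, H4C13, H4C12 and H4C9 lay between -2.09 and -1.32. H4C13 was below the mark on both PC-3 arrays, and without such dim genes 30 of 53 histone genes were at least 2-fold lower. The share over all genes, dim ones included, was 4.69%. Of the other H4 genes H4C8 had a log2 ratio of -0.10 and H4C16, on chromosome 12, of 0.59. Each of these classes thus held strongly lower genes beside genes that hardly differed.

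The H3 windows held CCAAT in 8 of 8 and TATAAA in 6 of 8, against 34.6% and 11.5% of all windows. CCAAT stood more than once in 7 of the 8, which was not counted over all windows. The H4 windows held CCAAT in 3 of 13 and TATAAA in 7 of 13. CCAAT was in all 13 H2A and all 17 H2B windows, and TATAAA in 11 and 12 of them and in 3 of 6 H1 windows. H3C1 (chr6:26020346-26020431, plus strand) and H3C2 (chr6:26032119-26032204, minus strand) are shown as the 86 bases that end at -20, beside H3C10 (chr6:27809946-27810031, plus strand), with CCAAT and TATAAA in capitals. The motifs stand at like places in all 3, while the PC-3 ratios were -3.40 and -2.99 against -0.19.
H3C1: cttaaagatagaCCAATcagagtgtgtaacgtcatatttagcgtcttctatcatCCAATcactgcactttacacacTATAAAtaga
H3C2: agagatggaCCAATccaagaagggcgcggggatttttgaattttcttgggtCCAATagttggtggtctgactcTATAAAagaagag
H3C10: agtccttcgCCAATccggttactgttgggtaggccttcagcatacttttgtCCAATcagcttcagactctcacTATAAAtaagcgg
H4C11 (chr6:27824032-27824072, plus strand) and H4C12 (chr6:27831580-27831620, minus strand) have the same 41 letters up to -20, with TATAAA in capitals.
H4C11: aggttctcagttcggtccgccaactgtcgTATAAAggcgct
H4C12: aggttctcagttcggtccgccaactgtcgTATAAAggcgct
Their log2 ratios were -1.70 and -1.40 in PC-3 cells, and 2.61 and 2.65 in 22Rv1 cells (1.07 and 0.88 after quantile normalization).

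**Figure D2:**
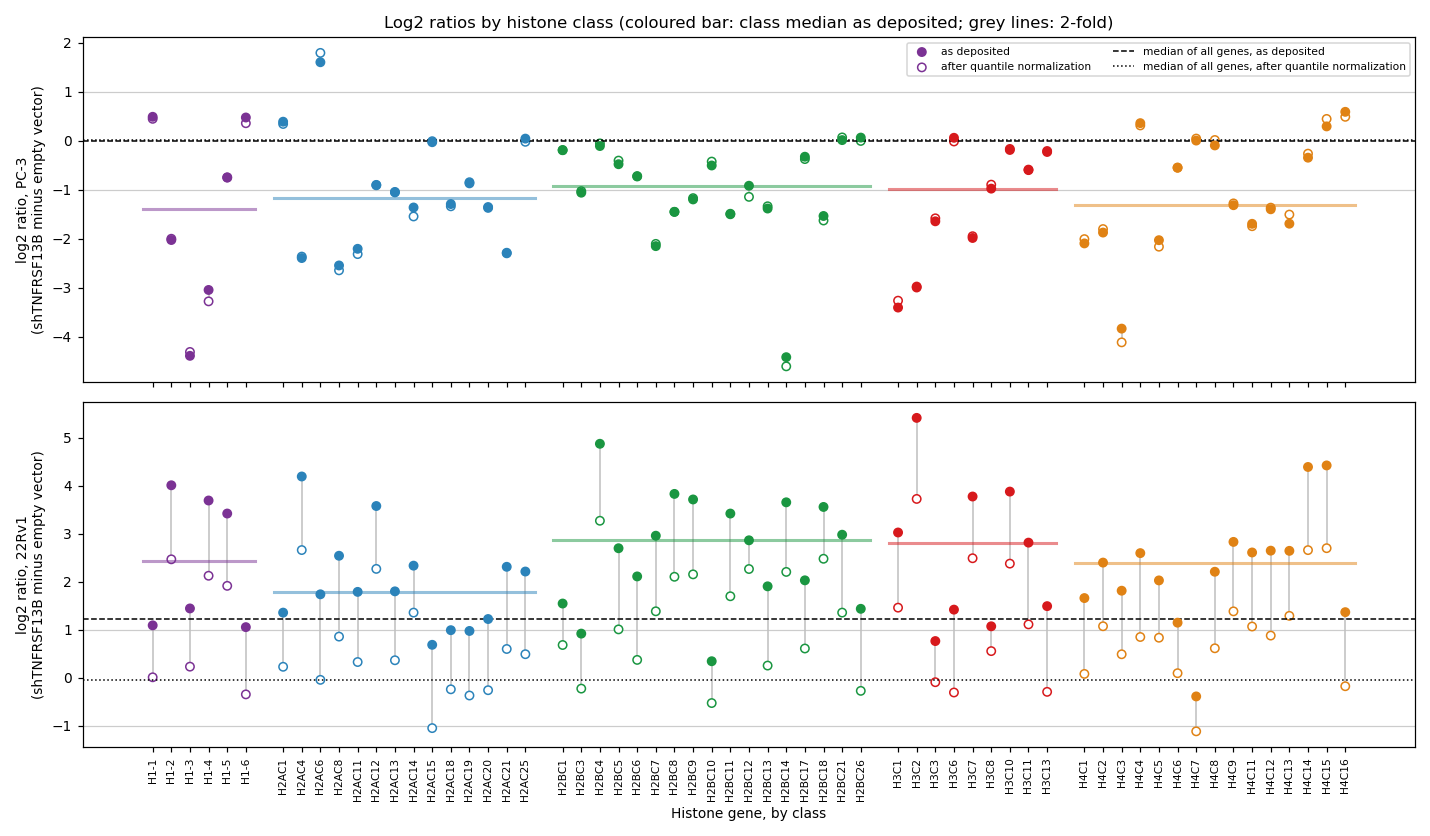
The log2 ratio of shTNFRSF13B minus empty vector (vertical axis) for each of the 61 histone genes (horizontal axis, by class) in PC-3 cells (upper panel) and 22Rv1 cells (lower panel), with filled points as deposited and open points after quantile normalization, 1 array per condition and no error bar. The PC-3 points move by less than 1.5-fold between scales, whereas in 22Rv1 cells the open points lie below the filled ones and the median of all genes drops from 1.22 to -0.06.

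In 22Rv1 cells the histone genes were higher with shTNFRSF13B than with the empty vector, and by how much depended on the scale. As deposited, the median log2 ratio was 2.31 against 1.22 over all genes, and 54 of the 61 genes were at least 2-fold higher, against 58.3% of all genes; no histone gene was at least 2-fold lower, against 2.01%. After quantile normalization the median was 0.83 against -0.06, 27 genes were at least 2-fold higher, against 13.3%, and 2 were at least 2-fold lower, H2AC15 and the dim H4C7, against 15.5%. Relative to the median of all genes the histone median thus stood 1.09 higher as deposited and 0.89 higher after quantile normalization. The part of the spread of the empty vector array in these values was not tested beyond that change of scale. Below the mark on both 22Rv1 arrays were 10 genes, and without them 48 of 51 were at least 2-fold higher as deposited.

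By class, the medians in 22Rv1 cells were 2.43 for H1, 1.79 for H2A, 2.86 for H2B, 2.81 for H3 and 2.40 for H4 as deposited, and 1.07, 0.34, 1.36, 1.11 and 0.85 after quantile normalization. H2A had the lowest and H2B the highest median on both scales, but the ranges of the classes overlapped throughout. This order did not hold when some genes were left out. Without polyadenylated-form genes the medians as deposited were 2.11 for H2B, 2.81 for H3 and 2.50 for H4. H1, at 1.44, was then below H2A, at 1.80. Without testis-type genes H1 was at 3.42 and H2B at 2.91. At least 2-fold higher after quantile normalization were 3 of 6 H1, 3 of 14 H2A, 10 of 17 H2B, 5 of 9 H3 and 6 of 15 H4 genes, against 13.3% of all genes. The 3 H2A genes were H2AC4, H2AC12 and H2AC14.

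The highest ratio was that of H3C2, at 11.36 with shTNFRSF13B and 5.94 with the empty vector, 42.7-fold higher as deposited and 13.2-fold after quantile normalization. H2BC4 was at 10.22 and 5.34, log2 ratios of 4.88 and 3.27 on the 2 scales. H4C15 was at 12.79 and 8.36 and H4C14 at 13.02 and 8.63, with ratios of 4.42 and 4.39 as deposited and 2.70 and 2.66 after quantile normalization. These 4 genes were in the same direction on both scales by more than 2-fold. Among the linker histones H1-2 was at 8.85 and 4.84, 16.1-fold higher as deposited, followed by H1-4 at 14.32 and 10.63 and H1-5 at 14.44 and 11.02. Among H2A genes H2AC4 led, at 9.01 and 4.81, 18.3-fold higher as deposited and 6.32-fold after quantile normalization.

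At the other end, H2AC18 and H2AC19 were at 13.86 and 13.36 with shTNFRSF13B and 12.88 and 12.39 with the empty vector, log2 ratios of 0.99 and 0.97 as deposited but -0.24 and -0.37 after quantile normalization. H2AC15 had a log2 ratio of 0.68 on the deposited scale and of -1.05 after quantile normalization. For these genes the direction followed the scale. In all, 1 of the 61 ratios was below 0 as deposited and 14 were after quantile normalization.

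The 2 lines thus differed in direction for many of the histone genes. Lower by at least 2-fold in PC-3 and higher by at least 2-fold in 22Rv1 cells were 28 of the 61 histone genes as deposited, against 3.56% of all genes, and 18 after quantile normalization, against 1.63%. On both scales there were 17: H1-2 and H1-4; H2AC4 and H2AC14; H2BC7, H2BC8, H2BC9, H2BC11, H2BC14 and H2BC18; H3C1, H3C2 and H3C7; H4C2, H4C9, H4C11 and H4C13. H4C13 was below the mark on both PC-3 arrays, H4C2 on the PC-3 array with shTNFRSF13B and H3C7 on the 22Rv1 array with the empty vector, so these 3 rest on dim values on 1 side. Between the lines, the 61 log2 ratios had Pearson's r of -0.27 and Spearman's rho of -0.31 as deposited, and -0.30 and -0.35 after quantile normalization, against r of -0.13 over all genes on both scales. The points rest on the same 4 arrays and on near-identical sequences, so these are descriptions. Among cell cycle genes with opposite responses in the 2 lines the study itself lists H3C2, H2AC4 and H3C15. Its values for H3C2 and H2AC4 differ from those given here.

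Of these 17, H2BC14 and H3C2 had the most different ratios in the 2 lines. H2BC14 was at 14.64 on the PC-3 empty vector array and 4.44 on the 22Rv1 empty vector array, but at 10.23 and 8.10 on the shTNFRSF13B arrays. H3C2 was at 11.17 and 5.94 on the empty vector arrays and at 8.17 and 11.36 on the shTNFRSF13B arrays. In H3C2 the line with the higher value thus changed with the construct, and in H2BC14 the gap between lines was narrower with shTNFRSF13B.

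**Figure D3:**
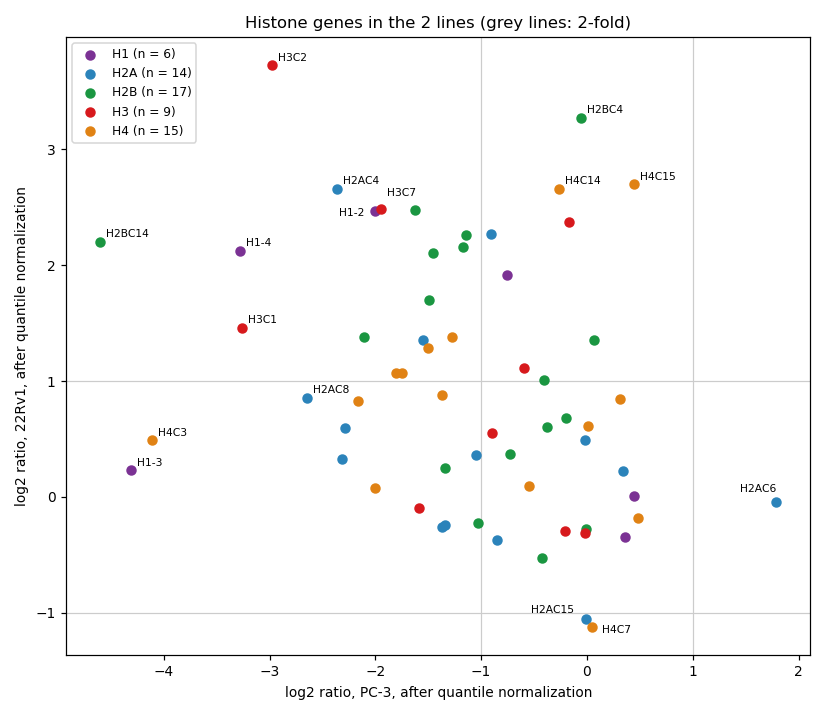
The log2 ratio in 22Rv1 cells (vertical axis) against that in PC-3 cells (horizontal axis), both after quantile normalization, for the 61 histone genes, coloured by class, 1 array per condition. The 18 points at the upper left are at least 2-fold lower in PC-3 and at least 2-fold higher in 22Rv1 cells, and they come from all 5 classes.

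Many H2A and H2B genes lie head to head and share the DNA between their starts. Overlap of the windows gave 8 such pairs among the 57 genes with a window, with 215 to 248 bases between the starts. In 6 of them 1 octamer lay in both windows. A pair with H2AC12, which had no window, could not be found this way. In PC-3 cells both partners were at least 2-fold lower in 4 of the 8 pairs: H2AC8 and H2BC8 (-2.54 and -1.45), H2AC11 and H2BC11 (-2.20 and -1.50), H2AC13 and H2BC13 (-1.05 and -1.38), and H2AC14 and H2BC14 (-1.36 and -4.41). In the other 4 at least 1 partner was within 2-fold. Of all genes, taken singly and not as pairs, 4.69% passed 2-fold downward in the PC-3 line as deposited. H2AC6 and H2BC4 parted most clearly in direction, with H2AC6 3.03-fold higher and H2BC4 within 2-fold at 10.68 and 10.78. H2AC20 was lower at -1.35, whereas its partner H2BC21 was at 0.01.

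In 22Rv1 cells both partners of all 8 pairs were at least 2-fold higher as deposited, a scale on which 58.3% of all genes were, and of 1 pair, H2AC14 and H2BC14, after quantile normalization, with 13.3% of all genes. The H2B partner had the higher ratio in 7 of the 8 pairs as deposited and in 6 of the 8 after quantile normalization. For H2AC6 and H2BC4 the ratios were 1.74 and 4.88 as deposited and -0.05 and 3.27 after quantile normalization. Genes that share a stretch of DNA thus differed on the log2 scale by up to 3.05 in the PC-3 pair of arrays and 3.14 in the 22Rv1 pair as deposited. The pairs share arrays and are few, and no test was made.

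Some histone genes also make polyadenylated mRNAs, often in cells that have left the cycle; H1-2, H2AC6, H2BC4, H2BC5, H2BC12, H2BC21 and H4C8 were listed as such. In PC-3 cells their median log2 ratio was -0.11, with 1 of 7 at least 2-fold lower (H1-2) and 1 higher (H2AC6), against a median of -1.24 and 30 of 54 lower for the other genes and 4.69% of all genes. After quantile normalization 2 of the 7 were lower, H1-2 and H2BC12, with 30 of the 54 and 4.25% of all genes. H2BC4, H2BC5 and H4C8 had ratios of -0.11, -0.48 and -0.10 in PC-3 cells. In 22Rv1 cells the medians were 2.86 for the 7 and 2.16 for the other 54 as deposited, and 1.36 and 0.64 after quantile normalization. The 2 ranges overlapped in each line, the list was written with earlier results known, and the labelling did not separate the 2 forms of an mRNA. The testis-type genes H1-6, H2AC1 and H2BC1, of which H2AC1 and H2BC1 were below the mark on all arrays, had medians of 0.39 (PC-3) and 1.36 (22Rv1) as deposited (0.34 and 0.23 after quantile normalization).

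Along chromosome 6, genes past 2-fold in the PC-3 line were interspersed with genes within 2-fold. The 49 genes there had a median PC-3 log2 ratio of -1.20, with 27 at least 2-fold lower, and the 11 on chromosome 1 had -0.35, with 4 lower (H2AC21, H2BC18, H2AC20 and H2AC18), against 4.69% of all genes. In 22Rv1 cells the medians were 2.40 and 2.21 as deposited and 0.86 and 0.49 after quantile normalization. A run of 3 neighbours, H1-5, H3C11 and H4C13, stood apart by line on the shTNFRSF13B arrays. H1-5 was at 14.44 in 22Rv1 and 5.86 in PC-3 cells on the shTNFRSF13B arrays, H3C11 at 11.05 and 4.23, and H4C13 at 6.66 and 2.39. The log2 difference was 8.58 for H1-5. H3C11 and H4C13 were below the dim mark of the PC-3 array, and against that mark they were at least 6.06 and 1.67 higher. H3C2 was higher by 3.19 and H2AC6, at 9.31 and 12.98, differed by -3.67. By the measured values 4 histone genes, these 3 neighbours and H3C2, were at least 8-fold higher in 22Rv1 cells with shTNFRSF13B, against 3.04% of all genes, and 1, H2AC6, was at least 8-fold lower, against 4.2%; with the mark in place of dim values H4C13 was not among them.

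With the empty vector H1-5 was at 11.02 in 22Rv1 and 6.61 in PC-3 cells, a log2 difference of 4.41 as deposited and 5.95 after quantile normalization. H3C11 was at 8.23 and 4.83, and H4C13 at 4.01 and 4.08, the PC-3 values of both below the mark, as they were with shTNFRSF13B. The difference of H4C13 followed the scale, at -0.07 as deposited and 1.11 after quantile normalization. H1-5 and H3C11 were thus higher in 22Rv1 cells with both constructs. Over all 61 genes the median difference of 22Rv1 minus PC-3 cells after quantile normalization was 0.50 with shTNFRSF13B and -1.38 with the empty vector, with 35 genes at least 2-fold lower in 22Rv1 cells in the latter, against 19.6% of all genes. On that scale 12 histone genes were at least 8-fold lower in 22Rv1 cells with the empty vector, against 3.61% of all genes. At least 8-fold higher were 2, H1-5 and H3C11, against 4.22%. These differences use the same 4 arrays as the ratios above.

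**Figure D4:**
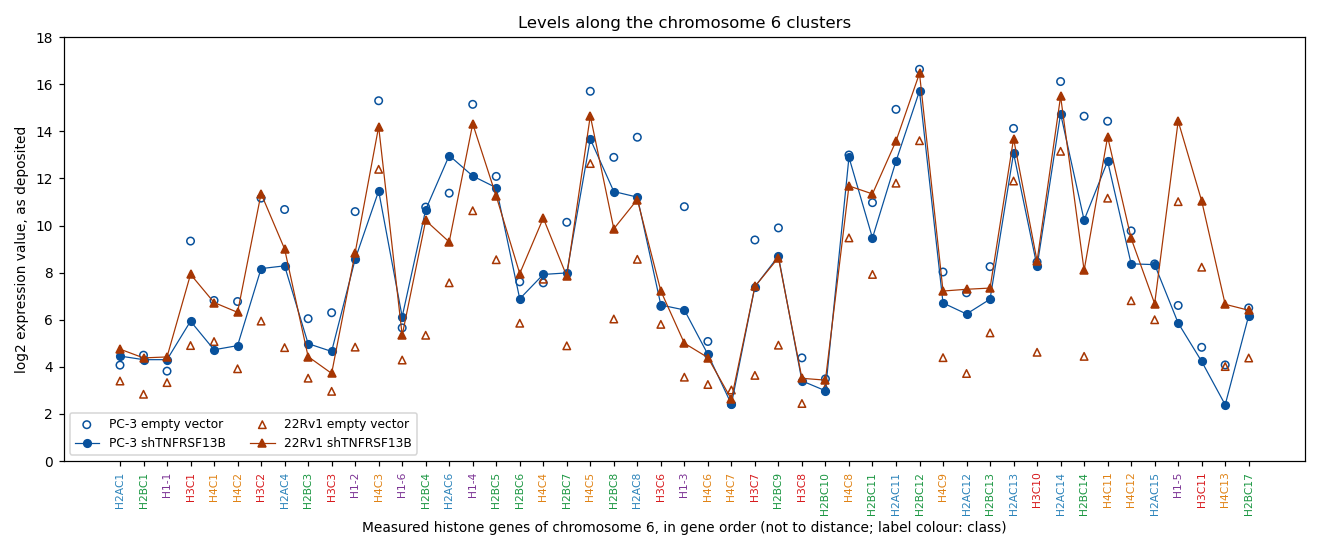
The log2 expression value as deposited (vertical axis) of the 49 measured histone genes of chromosome 6 in their gene order (horizontal axis, not to distance, label colours as the classes) on the 4 arrays, 1 per condition. The lines join the shTNFRSF13B arrays, and they part at H1-5 (22Rv1 minus PC-3, 8.58), at H3C11 and H4C13, which are dim in PC-3 cells, at H3C2 (3.19) and at H2AC6 (-3.67).

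Genes that make, process or carry histones were set beside them. Of 15 genes of histone mRNA transcription and processing 14 were measured, with a median log2 ratio of -0.28 in PC-3 cells. None was past 2-fold there, against 4.69% of all genes lower and 5.76% higher. With shares this small, 0 of 14 does not set these genes apart from all genes. NPAT stood at 9.41 with shTNFRSF13B and 9.84 with the empty vector, and SLBP, the stem-loop binding protein, at 9.92 and 10.36. The lowest was CSTF2, a cleavage factor, at -0.68. In 22Rv1 cells all 14 were at least 2-fold higher as deposited and 5 were after quantile normalization, against 58.3% and 13.3% of all genes, NPAT at 3.31 and 1.68 and SLBP at 2.06 and 0.48.

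Of 16 histone chaperones and carriers 15 were measured, with a median log2 ratio of -0.85 in PC-3 cells and 6 at least 2-fold lower, against 4.69% of all genes. The 6 were CHAF1B (-1.99) and CHAF1A (-1.53), subunits of the assembly factor CAF-1 that loads H3 and H4 behind the replication fork, SSRP1 (-1.60) and SUPT16H (-1.35), which form FACT, and the H3-H4 chaperones ASF1A (-1.12) and ASF1B (-1.10). In 22Rv1 cells 13 were at least 2-fold higher and 1, NAP1L1 (-1.34), lower as deposited (58.3% and 2.01% of all genes), and 7 were higher and none lower after quantile normalization (13.3% and 15.5%). Of 11 histones whose genes do not belong to the replication-dependent set 9 were measured, with a median of -0.45 in PC-3 cells. At least 2-fold lower, against 4.69% of all genes, were H2AX (-2.74), whose phosphorylated form marks DNA breaks, CENPA (-1.99), the H3 of centromeres, and H2AZ2 (-1.08), whereas H3-3B, which codes for H3.3, was at -0.45. In the 22Rv1 line 7 of these 9 were higher by at least 2-fold as deposited and 5 after quantile normalization, against 58.3% and 13.3% of all genes, with MACROH2A2 the highest at 4.20 and 2.47.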

How the data were processed

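Gene expression was measured on 4 Affymetrix arrays, 1 per condition, and each array's condition came from its labels. The deposited values are log2 expression values in a single table with a column per array. For their making, the submitters' notes give RMA with Partek and Affymetrix Expression Console; the study's methods add Transcriptome Analysis Console and call the platform Clariom D. Program versions and a genome build are not given in the sources used here. No count or depth underlies an array value, so precision is limited by having 4 arrays.

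The platform annotation paired 17709 of 24351 probe sets with 1 symbol and 6642 with none listed. For the 20 genes with several probe sets the brightest by mean over the 4 arrays was used, which left 17687 genes. Quantile normalization of the 4 columns and centring of each array on a common median were applied to the deposited values. So was loess of the ratio on the mean level (span 0.4). The steps were tested on simulated arrays, with a tolerance widened after the quantile step returned a large planted decrease as too small. A gene was counted at 2-fold or more, the criterion of the study. Other alternatives were thresholds of 1.5-fold and 3-fold, filters on dim genes, and leaving out testis-type or polyadenylated-form genes. With 1 array per condition, no replicate could be left out. Construct with the line as a block was fitted with limma over all genes (Benjamini-Hochberg), chosen after seeing the data. Python 3.11.15, pandas 2.3.3, numpy 2.4.6, statsmodels 0.14.6, matplotlib 3.10.9, R 4.3.3 and limma 3.58.1 were used.

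Promoter windows came from RefSeq, GRCh38.p14, with 250 bases before and 50 after the start; for 3 genes with several windows the first was used, and the motif calls of 1 of them, H3C6, differed between windows. Named genes are, per class and line, those with the lowest and highest ratios above the dim mark, the brightest of each class, those differing in both lines on both scales, the head-to-head H2A and H2B pairs, the polyadenylated-form and testis-type genes and members of the other lists; further genes were named after their values were seen. The members and lists were chosen with earlier results of these data known. The western blot, growth and colony data were not analysed here.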

Additional observations from a re-analysis of the deposited data

Results flagged for a closer look

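After quantile normalization, the log2 ratio of shTNFRSF13B minus empty vector had opposite signs in PC-3 and 22Rv1 cells for the histone genes as a group and for each class. The medians, 22Rv1 minus PC-3, differed by 1.88 for all 61 genes, 2.45 for H1, 1.54 for H2A, 2.38 for H2B, 2.01 for H3 and 2.13 for H4. With 1 array per condition the difference was not tested.

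The 17 genes past 2-fold on both scales, lower in PC-3 and higher in the 22Rv1 line, had the following differences of 22Rv1 minus PC-3 ratios after quantile normalization. H2BC14 differed by 6.80, H3C2 by 6.70, H1-4 by 5.40, H2AC4 by 5.02 and H3C1 by 4.72. H1-2 differed by 4.47, H3C7 by 4.44, H2BC18 by 4.11, H2BC8 by 3.55, H2BC7 by 3.49, H2BC9 by 3.32 and H2BC11 by 3.19. H2AC14 differed by 2.90, H4C2 by 2.87, H4C11 by 2.81, H4C13 by 2.79 and H4C9 by 2.66. None of these differences was tested.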

How the results depend on the processing

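The PC-3 ratios of the 61 histone genes moved by less than 1.5-fold under quantile normalization, centring and loess. The 22Rv1 results depended on the scale. At least 2-fold higher were 27 genes after quantile normalization, 25 after centring (10.8% of all genes) and 27 after loess (12.7%), in place of 54, and 2 were at least 2-fold lower after quantile normalization and after centring (28.2%). The 22Rv1 medians after quantile normalization, centring and loess were 0.83, 0.67 and 0.86 for all 61 genes, 1.07, 0.80 and 1.23 for H1, 0.34, 0.16 and 0.53 for H2A, 1.36, 1.23 and 1.28 for H2B, 1.11, 1.18 and 1.13 for H3, and 0.85, 0.76 and 0.87 for H4. Opposite in the lines, higher in 22Rv1 cells, were 18, 16 (1.98% of all genes) and 17 (1.57%), in place of 28, and 17 at 3-fold (1.05%).

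At 3-fold, 19 genes were lower in PC-3 cells (1.41% of all genes); at 1.5-fold 2 were higher (14.2%), and without polyadenylated-form genes 0 were at least 2-fold higher. The H1 median in PC-3 cells was -2.03 without genes below the olfactory receptor mark, -3.04 without those below the array median, -2.03 without testis-type and -0.75 without polyadenylated-form genes; in 22Rv1 cells the same settings gave 3.56, 3.69, 3.42 and 1.44. The H3 median in PC-3 cells was -1.64 and -1.98 under the 2 filters, and the H2B median in 22Rv1 cells was 2.11 without polyadenylated-form genes. H1 and H3 hold 6 and 9 genes, so leaving out a few moved their medians.

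The 22Rv1 ratio turned below 0 after quantile normalization, centring and loess for H1-6 (-0.35, -0.58 and -0.32), H2AC20 (-0.26, -0.41 and -0.13), H2BC26 (-0.28, -0.20 and -0.25), H3C13 (-0.30, -0.15 and -0.29), H3C6 (-0.31, -0.22 and -0.28) and H4C16 (-0.18, -0.27 and -0.17), all past 2-fold as deposited, and for 6 genes within 2-fold as deposited: H2AC15 (-1.05, -0.95 and -0.99), H2AC18 (-0.24, -0.65 and -0.02), H2AC19 (-0.37, -0.66 and -0.18), H2BC3 (-0.23, -0.72 and -0.18), H2BC10 (-0.53, -1.30 and -0.38) and H3C3 (-0.096, -0.87 and -0.0008). H4C7 was below 0 as deposited too. For H2AC6 it did so after quantile normalization (-0.047) and loess (-0.031). With centring alone it did so for H1-1 (-0.55), H1-3 (-0.19), H2AC1 (-0.28), H2BC1 (-0.092), H3C8 (-0.57) and H4C6 (-0.49). Averaging probe sets of a gene changed nothing, as each histone gene had 1. The cause of the different spread of the 22Rv1 empty vector array was not tested. The fit with the cell line as a block, added after the data were seen, gave 0 of 61 histone genes on both scales (limma, adjusted p under 0.05). In that fit ratios of opposite sign in the 2 lines offset each other. Signal near the dim mark limits the ratios of the 16 genes that were not above it on all 4 arrays.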
